A study of Mus musculus with 2 samples.

Results

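The metallothioneins Mt1, Mt2 and Mt4, the zinc transporters Slc30a1 and Slc39a10 and the zinc-sensing factor Mtf1 were followed in dorsal skin of mice with testosterone-induced androgenetic alopecia (AGA). They are 6 of the 32285 genes counted and were taken by symbol. They were chosen by their measured levels in these libraries, namely by the cell classes in which they stood out and by the place of Slc30a1 among the leading genes of a large shallow control cluster, so their levels across classes are given as a description. Skin of 15 male C3H/HeN mice per group, 9 weeks old at harvest and 7 weeks at the start, was pooled into 1 single-cell library per group. The control group (Con) received vehicle and the model group (TP) received 0.5 mg of testosterone propionate per day under the skin. The group given the CXCL12-neutralizing antibody as well is not analysed here. With 1 pool per group no test across animals can be made, and intervals at 95% cover counting error only.

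Metallothioneins are small cysteine-rich proteins that hold zinc and copper. Mt1 and Mt2 are made in many cells when free zinc, heavy metals, oxidants or glucocorticoids rise, whereas Mt4 belongs to stratified epithelium. The factor MTF-1, made from Mtf1, takes up zinc and binds metal response elements in front of genes such as Mt1, Mt2 and Slc30a1. Slc30a1 (ZnT1) moves zinc out of the cell, and Slc39a10 (ZIP10) moves it in. Zinc is needed for growth of the hair follicle, and loss of hair is a sign of zinc deficiency.

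Mt4, Mt2 and Mt1 lie side by side in this order on chromosome 8 (RefSeq positions on GRCm38.p6, the mm10 build of the counts). Mt4 (ENSMUSG00000031757) spans 94137204 to 94139031, Mt2 (ENSMUSG00000031762) spans 94172618 to 94173567, and Mt1 (ENSMUSG00000031765) spans 94178883 to 94180327. The gap from Mt4 to Mt2 is 33587 bases, and that from Mt2 to Mt1 is 5316 bases. Slc39a10 (ENSMUSG00000025986, 46807544 to 46925776) and Slc30a1 (ENSMUSG00000037434, 191906697 to 191913248) are on chromosome 1, and Mtf1 (ENSMUSG00000028890, 124802549 to 124849800) is on chromosome 4.

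Sequences before the RefSeq promoter starts of the metallothioneins and of Slc30a1 are shown because these members matched the metal response element searched here. Of the 6 members, 6 had a RefSeq promoter in the GRCm38.p6 table. The core of the metal response element was searched as TGCACNC and TGCGCNC on both strands in the 250 bases before each start, where no stretch can match both motifs on 1 strand. At least 1 match was found in 21.4% of the 32851 promoters of that length, and at least 3 matches in 1.26%. Mt2 held 3 matches, Mt1, Mt4 and Slc30a1 held 1 each, and none was found in the windows of Mtf1 and Slc39a10. Capitals mark the matches in the sequences, which all read 5′ to 3′ on the plus strand. For Mt2 (chr8:94172368-94172617) and Mt4 (chr8:94136954-94137203) the whole window of 250 bases is printed. The windows of Mt1 and Slc30a1 overlap their gene models by 206 and 84 bases, so 30 bases around the match are printed (chr8:94179055-94179084 and chr1:191906727-191906756). Bases past each start were not searched. The counts of matches thus hold for these windows alone and do not rank the genes by their number of such elements.
Mt1: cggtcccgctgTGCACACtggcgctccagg
Mt2: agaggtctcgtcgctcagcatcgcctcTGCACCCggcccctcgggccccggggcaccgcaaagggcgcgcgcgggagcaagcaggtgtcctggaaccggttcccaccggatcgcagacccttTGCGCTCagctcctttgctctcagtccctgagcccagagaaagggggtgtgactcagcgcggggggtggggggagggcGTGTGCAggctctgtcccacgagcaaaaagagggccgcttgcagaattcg
Mt4: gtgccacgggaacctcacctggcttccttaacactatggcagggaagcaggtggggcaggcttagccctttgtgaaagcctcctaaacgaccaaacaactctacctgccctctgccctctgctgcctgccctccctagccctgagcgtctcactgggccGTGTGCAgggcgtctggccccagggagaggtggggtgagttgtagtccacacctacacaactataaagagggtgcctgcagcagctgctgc
Slc30a1: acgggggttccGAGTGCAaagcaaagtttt
The matches lay 23 to 17 bases before the start in Mt1, 91 to 85 in Mt4 and 43 to 37 in Slc30a1. In Mt2 the matches lay 223 to 217, 128 to 122 and 50 to 44 bases before its start. A match describes letters in this window and is not a measured binding site.

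The control library held 39076 kept cells with a median of 2046 unique molecular identifiers (UMIs, each a captured transcript), and the TP library held 18542 with a median of 4821. Barcodes over the mitochondrial limit made up 7.58% of the control library and 22.6% of the TP library. The libraries shared 184 cell barcodes among the kept cells. Clustering without the members gave 22 cell classes with at least 50 cells in each library, of which 12 took a cell type name from their markers and 10 are called by their 2 leading genes. Interfollicular epidermis (IFE), hair follicle keratinocytes, dermal papilla cells (DPCs), dermal fibroblasts (DFs), melanocytes, endothelial and myeloid cells carried their defining markers. Levels are UMIs per 1000000 UMIs of the class or library (CPM) and are compared for a gene across classes and libraries, not between genes. Genes that handling of tissue can move also differed. Of 10 immediate-early and heat shock genes, 7 passed 2-fold upward in TP (Fos, 658 and 2023 CPM, and Atf3, 199 and 819.9 CPM) and 0 downward. Of the RNA quality pair neither passed 2-fold (Malat1, 18420 and 18720 CPM, and Neat1, 405 and 788 CPM), and of 13 mitochondrial genes 1 was past 2-fold lower (mt-Nd6). Their part in the results was not tested.

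Over all kept cells, Mt1 and Mt2 differed little between the libraries, Mt4 was higher and both zinc transporters were lower in TP. Mt1 stood at 994.9 CPM in control and 953.0 in TP (ratio of TP to control 0.958, interval 0.95 to 0.966), and Mt2 at 667 and 569 (0.853, 0.844 to 0.861). Scaled by a TMM factor, these ratios were 1.14 and 1.01, so neither gene has a direction that holds across scalings. Mt4 stood at 465 and 650 CPM (1.40, 1.38 to 1.41), a ratio of 1.66 with the TMM factor. Slc30a1 went from 304 to 84.5 CPM (0.278, 0.272 to 0.284), and Slc39a10 from 500.5 to 209 CPM (0.418, 0.412 to 0.424). Mtf1 was low in both, at 31.5 and 23.9 CPM (0.757, 0.721 to 0.795). Mt3, the brain-type metallothionein, stood at 2.88 and 2.68 CPM and is not followed further. Of the 6 members, 2 were at least 2-fold lower and 0 at least 2-fold higher. Among 17579 genes with at least 50 UMIs, 3.52% were at least 2-fold lower and 4.45% at least 2-fold higher (pseudocount of 1 CPM), with a median log2 ratio of -0.18. When the clusters were given the control's shares in both libraries, the ratio of Slc30a1 became 0.631, that of Slc39a10 became 0.786 and that of Mt4 became 1.05, so neither transporter passed 2-fold under those shares. As a median over the 22 classes, each class counted alike, the ratio was 0.325 for Slc30a1 and 0.420 for Slc39a10. That of Slc30a1 includes classes, given below, whose level cannot be told from free RNA of lysed cells. In pooled libraries, fewer cells of a class and less RNA per cell cannot be told apart at this level.

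**Figure D1:**
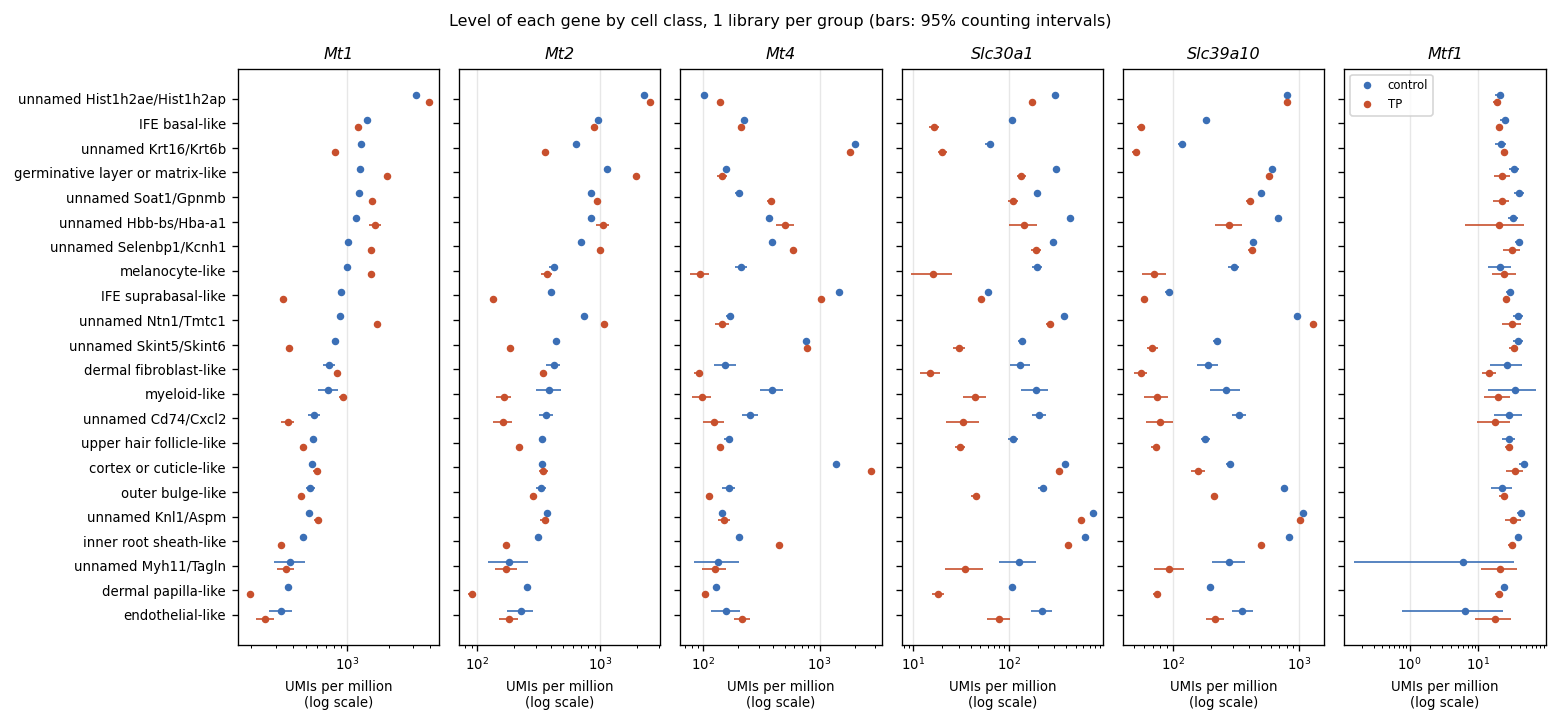
Level of each gene (CPM, log axis) in 22 cell classes of the control (blue) and TP (red) library, with 95% Poisson intervals as bars and 1 library per group. Mt1 and Mt2 peak in the Hist1h2ae/Hist1h2ap class (3142 and 3949 CPM for Mt1), Mt4 in upper epidermis and hair shaft classes, and the red points of Slc30a1 lie left of the blue ones in 22 of 22 classes, of which IFE suprabasal-like cells change side (1.075) with a TMM factor.

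Mt1 and Mt2 were highest in cells with high histone mRNA, with germinative cells and basal epidermis also high, and low in vessels and DPC-like cells. The class led by Hist1h2ae and Hist1h2ap, genes of replication-dependent histones, held 3142 CPM of Mt1 in control and 3949 in TP, and 2267 and 2556 CPM of Mt2. It supplied 26.8% of the control's Mt1 UMIs from 8.49% of all UMIs, and 37.1% from 8.95% in TP. This class stood apart from the next class in both libraries and for both genes. After thinning to 1000 UMIs per cell, Mt1 was seen in 78.4% of its control cells (76.4 to 80.3) and 82.4% of its TP cells (80.0 to 84.7), against 30.5% and 15.5% of DPC-like cells. Unthinned, the shares were 94.3% and 97.1% against 59.2% and 47.4%, at median depths of 4802 and 10867 UMIs against 2418 and 4466. In control the Knl1/Aspm class had the most Mki67, a gene of dividing cells (1490 CPM, against 1151 in the histone class and 1105 in the Ntn1/Tmtc1 class) and held 525 CPM of Mt1. Germinative layer or matrix-like cells, which carry Shh, the ligand made at the base of growing follicles, held 1240 CPM of Mt1 in control and 1959 in TP, with Mt2 at 1143 and 1941. IFE basal-like cells held 1382 and 1199 CPM of Mt1 and 954 and 889 CPM of Mt2. In control they came second for Mt1, and of the next 3 classes (Krt16/Krt6b at 1252, matrix-like at 1240, Soat1/Gpnmb at 1217) each overlapped its neighbour. The lowest levels of Mt1 were 326 CPM in endothelial-like cells of the control and 194 CPM in DPC-like cells of TP. Of 21 neighbouring pairs in the order of Mt1 levels, 15 overlapped in control and 12 in TP.

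Mt1 and Mt2 followed each other across classes but not in a fixed ratio. Over 44 profiles (22 classes in each library, sharing library and depth), Pearson's r of their log2 levels was 0.92, the highest that either had with 11656 genes. The next most alike for both was Phgdh, the first enzyme of serine synthesis (r of 0.81 with Mt1 and 0.90 with Mt2). The third was Parp1, a sensor of DNA breaks, for Mt1 (0.76) and Dctpp1, which breaks down dCTP, for Mt2 (0.83). Matrix-like cells held 0.921 Mt2 UMIs per Mt1 UMI in control (0.889 to 0.955) and 0.991 in TP (0.953 to 1.03). IFE suprabasal-like cells held 0.437 (0.420 to 0.454) and 0.396 (0.381 to 0.411). The value was lower in TP in 18 of 22 classes, among them DPC-like cells (0.680 and 0.465) and inner root sheath-like cells (0.657 and 0.518), and higher in 4, among them IFE basal-like cells (0.690 and 0.741). In myeloid-like cells it went from 0.527 (0.395 to 0.698) to 0.177 (0.151 to 0.207), with Mt1 at 723 and 924 CPM and Mt2 at 381 and 164 CPM. The control value rests on 78 cells with 148 Mt1 and 78 Mt2 UMIs. The part of free RNA of lysed cells in this class was not tested.

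Mt1 and Mt2 were lower in TP in differentiating epidermis, inner root sheath-like cells and DPC-like cells, and higher in matrix-like cells and a few unnamed classes. IFE suprabasal-like cells, the differentiating layers that carry Flg and Lor, held 906 CPM of Mt1 in control and 340 in TP (ratio 0.375, 0.364 to 0.386) and 395 and 134 CPM of Mt2 (0.340, 0.325 to 0.356). The class led by Skint5 and Skint6, genes of suprabasal epidermis, held 807 and 376 CPM of Mt1 (0.466, 0.440 to 0.493). The class led by Krt16 and Krt6b, keratins of activated or thickened epidermis, held 1252 and 811 CPM (0.648, 0.630 to 0.667). Inner root sheath-like cells, the class with the most control cells, held 471 and 327 CPM of Mt1 (0.694, 0.663 to 0.727) and 309.8 and 169.5 CPM of Mt2 (0.547, 0.514 to 0.582). DPC-like cells held 370 and 194 CPM of Mt1 (0.524, 0.497 to 0.553) and 251 and 89.9 CPM of Mt2 (0.358, 0.332 to 0.385). Their clusters were mixed differently, since one led by Gpc5 and Dkk2, with no papilla marker among its 10 leading genes, held 43 of 4307 control and 495 of 1784 TP cells. In the other two clusters the ratio of Mt1 was 0.491 and 0.532, and that of Mt2 0.289 and 0.409. Both genes were near the low end of all classes in DPC-like cells, and their level there cannot be told from free RNA. Levels of both genes in inner root sheath-like and IFE suprabasal-like cells lay within the range of 7 other classes. So did those of Mt1 in the Skint5/Skint6 class. The 7 are classes of stroma (DPC-like cells included), vessels, pigment and immune cells. That range was 326 to 991 CPM in control and 194 to 1490 in TP for Mt1, and 182 to 418 and 89.9 to 366 for Mt2. The part of free RNA in inner root sheath-like cells, IFE suprabasal-like cells and the Skint5/Skint6 class was not tested. The ratio lay above 1 in the class led by Ntn1 and Tmtc1 (884 to 1637 CPM of Mt1, 1.85, 1.76 to 1.95). It was 1.58 (1.52 to 1.64) in matrix-like cells and 1.47 (1.41 to 1.54) in the class led by Selenbp1 and Kcnh1. Mt2 showed 1.44, 1.70 and 1.41 in these 3 classes. In all, the interval of Mt1 lay above 1 in 11 and below 1 in 10 of 22 classes, and that of Mt2 in 6 and 12. At least 2-fold lower were 2 classes for Mt1 and 5 for Mt2, and 0 were at least 2-fold higher. In IFE suprabasal-like cells 7.73% of 11641 genes were at least 2-fold lower, and in DPC-like cells 5.67% of 13064. In the Skint5/Skint6 class, counted for both Mt1 and Mt2, 5.51% of 9785 genes were. Mt2 was also at least 2-fold lower in myeloid-like cells and in the class led by Cd74 and Cxcl2. Both are among the 7 classes of the range above, and the part of free RNA in them was not tested. Such falls were more common in both, with 466 of 4653 genes in myeloid-like cells and 591 of 5651 in the Cd74/Cxcl2 class.

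TP cells were deeper in each of these classes, those with lower as well as those with higher levels. The relation of Mt1 to depth within the control library differed between classes. In matrix-like cells it was higher in deeper cells, at 920 CPM among cells of 2000 up to 4000 UMIs, 1822 at 4000 up to 8000 and 2988 at 8000 and over. The same bins of TP held 962, 1568 and 2250 CPM. In inner root sheath-like control cells it went the other way, from 807.5 CPM under 1000 UMIs to 299 at 8000 and over, and in DPC-like control cells from 992 to 311. Averaged over bins shared by both libraries, a comparison chosen after the data were seen, the ratio of Mt1 was 0.915 in matrix-like cells, 1.075 in the Ntn1/Tmtc1 class and 0.910 in the Selenbp1/Kcnh1 class. Among cells of like depth the ratio in these 3 classes thus lay near 1. The part of depth in the difference was not tested. Above 1 at like depth were also myeloid-like cells (1.67, from 1 shared bin), DF-like cells (1.27), the Hist1h2ae/Hist1h2ap class (1.22) and melanocyte-like cells (1.16, and 1.51 over all their cells). The Hist1h2ae/Hist1h2ap class held 3271 and 4008 CPM at 4000 up to 8000 UMIs. The lower level of TP was seen at like depth in IFE suprabasal-like cells (0.360), DPC-like cells (0.545), the Skint5/Skint6 class (0.555) and IFE basal-like cells (0.654). Over all IFE suprabasal-like cells, the basal markers Krt14 (ratio 0.483) and Krt5 (0.389) and the gene Mki67 (0.229) were also lower in TP. The suprabasal marker Krt10 was higher in them (1.56). The part of a changed mix of cells within this class was not tested. The bin of 8000 UMIs and over has no upper limit, so depths within it can differ. It held 62.1% of IFE suprabasal-like cells in control and 85.4% in TP. In their bin of 4000 up to 8000 UMIs Mt1 stood at 679 and 231 CPM. In all, 17 of 22 classes had a matched ratio below 1 for Mt1, and 19 of 22 for Mt2. The TMM factor of a class lay below 1 throughout, from 0.736 in myeloid-like cells to 0.974 in the Hist1h2ae/Hist1h2ap class. Ratios just under 1 can thus turn with that factor, which was not applied to matched cells. The share of all genes below 1 at like depth was not counted.

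**Figure D2:**
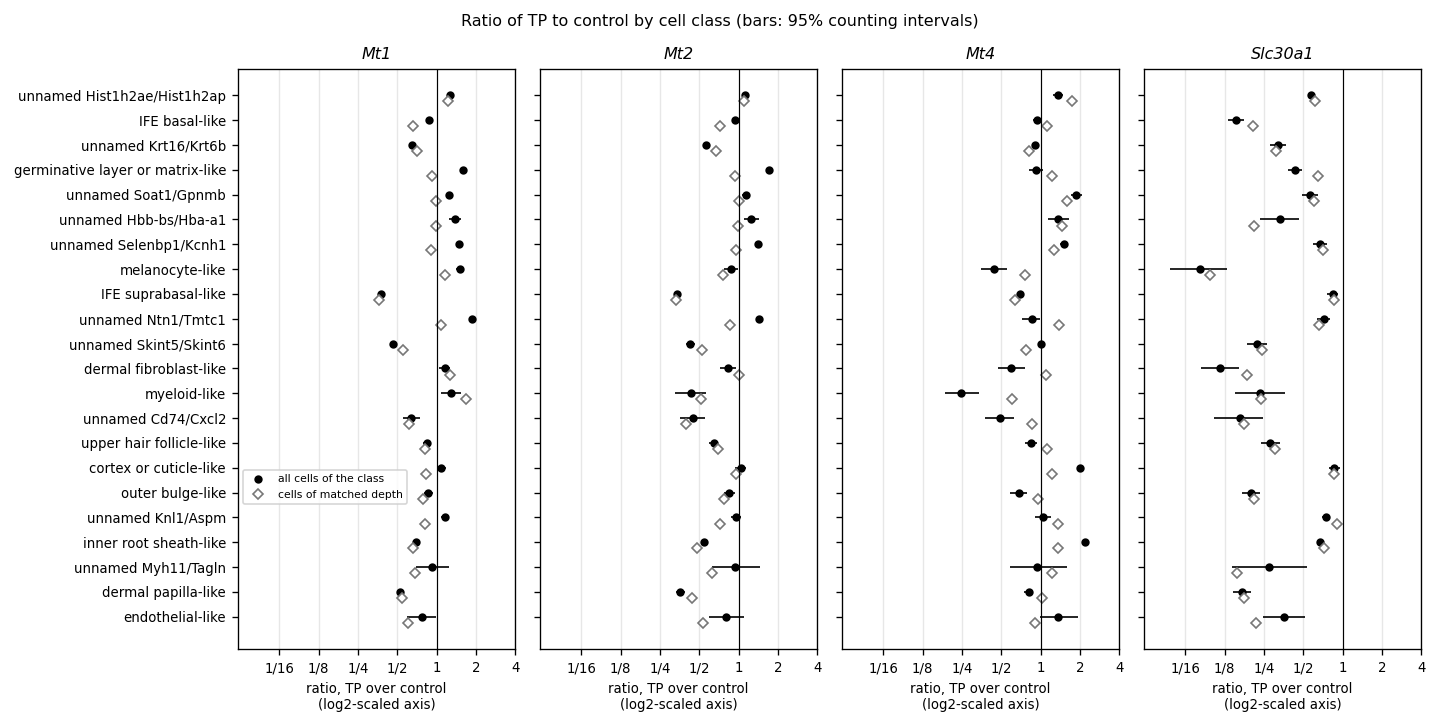
Ratio of TP to control (log2-scaled axis) for Mt1, Mt2, Mt4 and Slc30a1 in 22 cell classes, over all cells of the class (black, bars are 95% counting intervals) and over cells of matched depth (open diamonds). Diamonds of Mt1 in the matrix-like and Ntn1/Tmtc1 classes fall back to about 1 (0.915 and 1.075), whereas those of IFE suprabasal-like cells stay at 0.360 for Mt1, and Slc30a1 lies below 1 in 22 of 22 classes, of which IFE suprabasal-like cells change side (1.075) with a TMM factor.

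**Figure D3:**
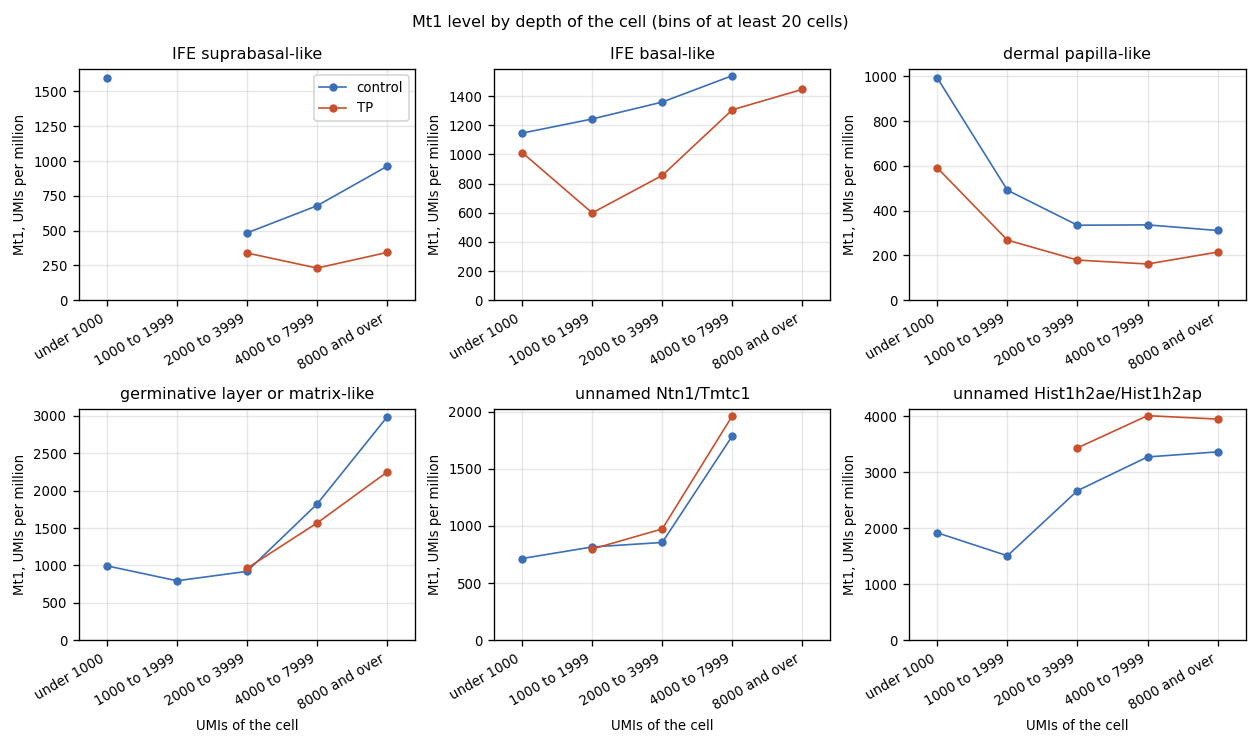
Mt1 level (CPM) against the depth of the cell (UMIs, 5 bins of at least 20 cells, lines joining neighbouring bins) in 6 cell classes of the control (blue) and TP (red) library. The red points lie below the blue ones at every shared depth in the IFE and DPC-like panels, above them in the Hist1h2ae/Hist1h2ap panel (4008 against 3271 CPM at 4000 up to 8000 UMIs), and cross them in the matrix-like panel.

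Mt4 marked the differentiating epidermis and the hair shaft. In control the class led by Krt16 and Krt6b, which has Mt4 itself among its 10 leading genes, held 2031 CPM, IFE suprabasal-like cells held 1483, cortex or cuticle-like cells of the hair shaft 1372 and the Skint5/Skint6 class 769. The 4 levels lay outside each other's intervals. In TP the order was cortex or cuticle-like (2763), Krt16/Krt6b (1833), IFE suprabasal-like (1029) and Skint5/Skint6 (774). The Krt16/Krt6b and IFE suprabasal-like classes together supplied most Mt4 UMIs, at 23.2% and 27.4% in control and 38.7% and 34.0% in TP, from 5.32% and 8.61% of all UMIs in control and 13.7% and 21.5% in TP. In 7 classes of stroma, vessels, pigment and immune cells, where the gene is not known to be made, its level was 129 to 391 CPM in control and 91.7 to 216 CPM in TP. Levels in that range, also that of the Hist1h2ae/Hist1h2ap class (102 and 139 CPM), cannot be told from free RNA of lysed cells. The genes most alike over the 44 profiles were Alox12, a lipoxygenase (r of 0.85), Ggct, an enzyme of glutathione breakdown (0.85), and Them5, a thioesterase (0.83). The profile of Mt1 was unlike it (r of 0.00).

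Between the libraries, Mt4 was higher in cortex or cuticle-like cells of TP and lower in IFE suprabasal-like cells. Cortex or cuticle-like cells showed a ratio of 2.01 (1.93 to 2.10), the same direction in both of their clusters. The cluster led by Acsm3 and Slc27a6 went from 855 to 1879 CPM, and that led by the hair keratins Krt31 and Krt33a from 2040 to 3832. Among cells of like depth this ratio was 1.21. IFE suprabasal-like cells showed 0.694 (0.680 to 0.708), the Krt16/Krt6b class 0.903 (0.883 to 0.922) and the Skint5/Skint6 class 1.01 (0.958 to 1.06). With TMM factors these were 0.887, 1.07 and 1.18, so the direction of the Krt16/Krt6b class turned. Inner root sheath-like cells went from 203 to 446 CPM (2.19, 2.09 to 2.30), but their 2 large clusters held 171 and 160.5 CPM and 154 and 159 CPM. The third, led by Prr9 and S100a3, held 549 and 1063 CPM and made up 317 of 7522 control and 159 of 1042 TP cells. It had no inner root sheath marker among its 10 leading genes. These were shared in part with an inner root sheath-like cluster (Prr9, Crym, Fbp1, Gm49708) and in part with a cortex or cuticle-like one (S100a3, Acsm3, Slc27a6, Vsig8). With the clusters in the control's shares, the ratio for this class was 1.26.

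Slc30a1 was highest in inner root sheath-like cells and in a mitotic class that also held their keratins. The class led by Knl1 and Aspm held 753 CPM in control (731 to 775) and 565 in TP (530 to 602), and inner root sheath-like cells, which carry Krt71, Krt25 and Krt27, held 621 and 419. These stood first and second in both libraries. Cortex or cuticle-like cells held 389 and 336 CPM, the Ntn1/Tmtc1 class 375 and 269, and matrix-like cells 314 and 136. Inner root sheath-like cells supplied 34.2% of the control's Slc30a1 UMIs from 16.8% of all UMIs, and 27.1% from 5.46% in TP. Over the 44 profiles the genes most alike were the homeobox factors Cux1 (r of 0.91) and Dlx3 (0.90) and the connexin Gjb2 (0.90). Cux1 was also the first for Slc39a10 (0.92), followed by Trim59 and D10Wsu102e (both 0.91).

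Slc30a1 was lower in TP in 22 of 22 classes with every interval below 1, except that the TMM factor turned the ratio of IFE suprabasal-like cells from 0.841 to 1.075. In several classes with high levels the difference stayed under 2-fold. The ratio was 0.675 in inner root sheath-like cells (0.648 to 0.703), 0.751 in the Knl1/Aspm class (0.700 to 0.805), 0.718 in the Ntn1/Tmtc1 class and 0.865 in cortex or cuticle-like cells (0.782 to 0.957). Also under 2-fold were the Selenbp1/Kcnh1 (0.670), Hist1h2ae/Hist1h2ap (0.573) and Soat1/Gpnmb (0.561) classes and IFE suprabasal-like cells. Within clusters of the inner root sheath the ratio was 0.764 in the largest (856 to 654 CPM), 0.796 in the next (468 to 373 CPM) and 0.829 in the cluster led by Prr9 (280 to 232 CPM). At least 2-fold lower were 14 classes. They included DFs (132 to 15.1 CPM, 0.115, 0.0823 to 0.160), melanocyte-like cells (196 to 15.98 CPM, 0.0814, 0.0476 to 0.131), DPC-like cells (107 to 18.2 CPM) and IFE basal-like cells (108 to 16.5 CPM). They also included matrix-like cells (0.432) and the Hbb-bs/Hba-a1 class (0.331), whose levels were high. At like depth the ratio of matrix-like cells was 0.646, and 13 classes were at least 2-fold lower. In these 14 classes 2.01% to 14.0% of the genes counted in a class were at least 2-fold lower.

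Inner root sheath keratins were also counted in cells that are not keratinocytes and were lower there in TP together with Slc30a1. Krt71, Krt25 and Krt27 summed to 8409 CPM in inner root sheath-like cells of the control and 10930 in TP. In the 7 classes of stroma (DPC-like cells included), vessels, pigment and immune cells, which do not make these keratins, they summed to 1280 to 2110 CPM in control and 183 to 371 CPM in TP. There the ratio of TP to control was 0.0872 to 0.209 for the keratins and 0.0814 to 0.357 for Slc30a1. The number of Slc30a1 UMIs per keratin UMI was 0.0837 to 0.123 in these classes of the control and 0.0807 to 0.232 in TP. It was 0.106 and 0.0856 over all kept cells, and 0.0738 and 0.0383 in inner root sheath-like cells. In the control, Slc30a1 in these 7 classes thus stood to the keratins about as in the whole library, and its level there cannot be told from free RNA. The same limit holds for epidermal classes, with 0.0796 in IFE basal-like cells, 0.0827 in upper hair follicle-like cells, 0.0832 in the Skint5/Skint6 class and 0.0757 in the Krt16/Krt6b class of the control. Of the 14 classes at least 2-fold lower, 11 held no more Slc30a1 per keratin UMI in control than the whole library, as rounded here. Among these 11, the Hbb-bs/Hba-a1 class (0.106) equals the whole library only after rounding. In TP the value lay above that of the whole library in 5 of the 7 classes, and was highest in endothelial-like (0.232) and myeloid-like cells (0.202). After thinning to 1000 UMIs, Slc30a1 was seen in 44.7% of inner root sheath-like cells of the control (43.6 to 45.9) and 33.4% in TP (30.4 to 36.4). In DF-like cells it was seen in 11.2% (6.91 to 17.0) and 2.03% (1.09 to 3.45). Unthinned, the shares were 65.3% and 70.2% against 29.1% and 8.61%, at median depths of 1822 and 3987 UMIs against 2057 and 6532. Cortex or cuticle-like cells held 0.328 Slc30a1 UMIs per keratin UMI in control and 1.08 in TP, and the Ntn1/Tmtc1 class held 0.193 and 0.553.

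**Figure D4:**
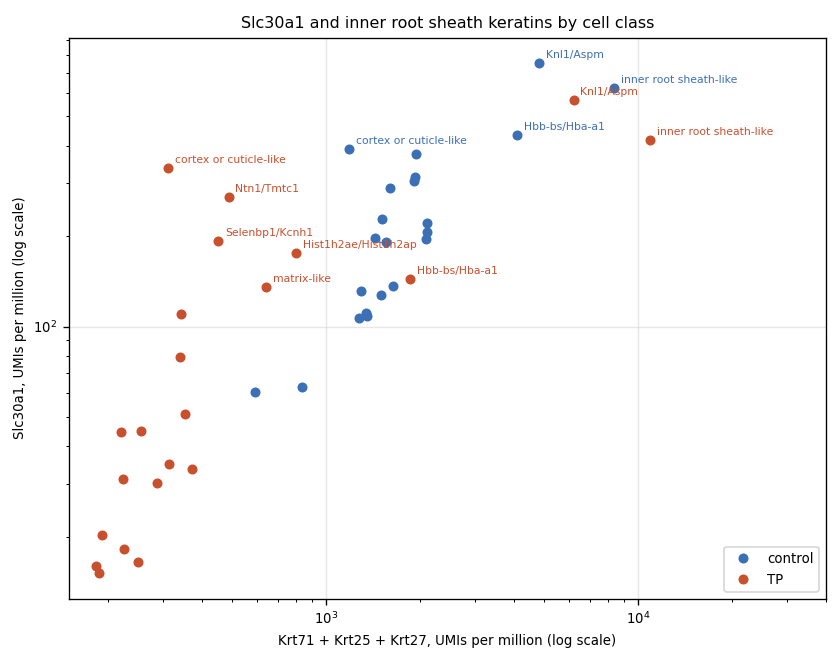
Slc30a1 level against the summed level of the inner root sheath keratins Krt71, Krt25 and Krt27 (CPM, both axes log) in 22 cell classes of the control (blue) and TP (red) library, with some of the classes named. Points of the 7 classes of stroma (DPC-like cells included), vessels, pigment and immune cells lie at 1280 to 2110 CPM of keratin in control and at 183 to 371 CPM in TP, and Slc30a1 is lower with them.

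The shallow cluster that the choice of these genes refers to had the lowest depth of the 30 clusters, with a median of 742 UMIs. It held 4238 control cells (10.8%) and 290 TP cells (1.56%), was led by the hemoglobin genes Hbb-bs and Hba-a1, and took no cell type name. Hbb-bs stood at 37.7 CPM in its control cells and 614 in its TP cells, and Hba-a1 at 26.0 and 462.5. Slc30a1 was the 11th of the cluster's genes by fold over the other cells, and with coarser clustering (7009 control and 446 TP cells, median 966 UMIs) the third after Hbb-bs and Krt75. It supplied 5.13% of the control's Slc30a1 UMIs (4.90 to 5.38), and with coarser clustering 15.0%. Slc30a1 stood there at 434 CPM in control and 143 in TP, below inner root sheath-like cells. Its keratin sum was 4093 CPM in control with 0.106 Slc30a1 UMIs per keratin UMI, the value of the whole control library. Its control profile was also the one most like the rest of its library among the clusters (r of 0.97 across 17579 genes). Mt1 (1165 and 1603 CPM) and Mt2 (833 and 1045 CPM) were above the medians over the 22 classes, which were 771 and 711.5 CPM for Mt1 and 406 and 343 CPM for Mt2. Without this cluster the whole-library ratio of Slc30a1 was 0.282.

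Slc39a10 shared the follicle pattern but reached further. Its level in control was 1074 CPM in the Knl1/Aspm class, 974 in the Ntn1/Tmtc1 class, 834 in inner root sheath-like cells, 800.3 in the Hist1h2ae/Hist1h2ap class and 763 in outer bulge-like cells, which carry Lgr5. In TP these were 1027, 1283, 497, 803 and 214 CPM. The ratio was 1.32 in the Ntn1/Tmtc1 class (1.245 to 1.393), the only class whose interval lay above 1, and 1.03 there among cells of like depth. It lay near 1 in the Hist1h2ae/Hist1h2ap class (1.00, 0.973 to 1.04), the Knl1/Aspm class (0.956, 0.907 to 1.01), matrix-like cells (0.949, 0.892 to 1.01) and the Selenbp1/Kcnh1 class (0.979, 0.901 to 1.06). It was 0.597 in inner root sheath-like cells (0.575 to 0.619) and 0.280 in outer bulge-like cells (0.259 to 0.303). In outer bulge-like cells the keratin sum went from 1513 to 254 CPM, a ratio of 0.168. They held 0.504 Slc39a10 UMIs per keratin UMI in control and 0.84 in TP, against 0.174 and 0.212 in the whole library. At least 2-fold lower were 12 of 22 classes, in which 2.01% to 14.0% of the genes counted were so, and the interval lay below 1 in 17. In the 7 classes of stroma, vessels, pigment and immune cells the level was 190.2 to 358 CPM in control and 56.3 to 216 in TP, with 0.145 to 0.185 UMIs per keratin UMI in control, near the 0.174 of the whole library. In TP these values were 0.214 to 0.633, against 0.212 in the whole library. In control both transporters were highest in the Knl1/Aspm class.

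Mtf1 was low. It lay between 6.05 and 45.7 CPM across classes in control and between 14.3 and 33.9 in TP, highest in cortex or cuticle-like cells of both. All 21 of 21 neighbouring pairs overlapped in both libraries, though classes far apart in the order did not. Inner root sheath-like cells held 38.3 CPM in control (35.5 to 41.3) and 31.5 in TP (27.6 to 35.9), against 20.5 (17.7 to 23.7) and 18.8 (16.4 to 21.4) in the Hist1h2ae/Hist1h2ap class. The genes most alike over the 44 profiles were Neurl4 (r of 0.84), Dhx29 (0.84) and Timmdc1 (0.82). The interval of the ratio lay below 1 in 3 of 22 classes, which were matrix-like cells (33.3 to 22.5 CPM, 0.678, 0.496 to 0.915), inner root sheath-like cells (0.822, 0.705 to 0.956) and the Soat1/Gpnmb class (0.560, 0.404 to 0.767). Among cells of like depth the ratios of these classes were 0.983, 0.7915 and 0.517, so that of matrix-like cells lay near 1. Thinned to 1000 UMIs, Mtf1 was seen in 3.26% of control cells (3.07 to 3.45) and 2.39% of TP cells (2.17 to 2.63), and unthinned in 7.77% and 14.2%.

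The other genes of metal handling give the setting. Counts of genes past 2-fold in these lists use a pseudocount of 1 CPM. Of 10 exporters of the SLC30 family, 6 had at least 50 UMIs, and Slc30a1 was the only one at least 2-fold lower in TP. Slc30a9 (73.7 to 53.3 CPM) and Slc30a7 (43.8 to 44.0 CPM), which serve internal membranes, were not past 2-fold. Of 14 importers of the SLC39 family, 11 had at least 50 UMIs. Slc39a10 was at least 2-fold lower, and Slc39a2 was at least 2-fold higher at a low level (2.13 to 6.80 CPM). Slc39a6, the nearest relative of Slc39a10, stood at 129 and 81.4 CPM (0.633), and Slc39a11 at 94.3 and 58.5 CPM. Of 7 genes of copper handling, 1 was at least 2-fold higher, the transporter Slc31a2 (22.1 to 47.2 CPM), and the chaperone Atox1 stood at 439 and 452 CPM. Atp7b, at 0.347 and 0.12 CPM, had a ratio of 0.346 without the pseudocount. Of 7 targets of the oxidant-sensing factor NRF2, 1 was at least 2-fold higher, the heme oxygenase Hmox1 (2.53 to 10.4 CPM). Srxn1 (2.61 to 6.10 CPM) had a ratio of 2.34 without the pseudocount. Txnrd1, a thioredoxin reductase and the highest of these targets, stood at 141 and 98.8 CPM. Of the 4 metallothioneins, Mt3 included, 0 passed 2-fold. The median log2 ratio was -0.07 for the metallothioneins, -0.35 for the exporters, -0.13 for the importers, -0.26 for copper handling and 0.18 for the NRF2 targets, beside -0.18 over all genes.

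Detection of Mt1 and Mt2 in the same cells was compared at 1000 UMIs per cell. In IFE basal-like cells Mt2 was seen in 58.7% of control cells with Mt1 (56.4 to 60.9) and 47.6% of those without (44.3 to 50.9), and in TP in 54.2% and 39.3%. In inner root sheath-like cells it was seen in 30.5% and 25.5% in control and 21.4% and 9.86% in TP. Slc39a10 was seen in 56.7% of inner root sheath-like control cells with Slc30a1 and 49.1% of those without, and in 44.6% and 32.3% in TP. Among cortex or cuticle-like cells Mt4 was seen in 48.8% of control cells with Mt1 (44.0 to 53.7) and 44.1% of those without (40.3 to 47.9), and in TP in 74.4% (63.6 to 83.4) and 55.6% (48.0 to 63.1). Among IFE suprabasal-like cells of TP the shares were 55.0% (49.7 to 60.1) and 44.4% (41.4 to 47.5). In IFE basal-like control cells, where Mt4 was low, they were 17.9% (16.2 to 19.7) and 19.6% (17.0 to 22.3).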

How the data were processed

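Dissociated dorsal skin of 2 pools of 15 mice was profiled in droplets, and 1 library per group was analysed. The deposited values are UMI counts per gene and barcode from Cell Ranger 8.0.1 (the submitters' processing notes) on mm10, with copies of a molecule removed by the authors' run and no normalization. They come before the study's filters, which were applied here: 200 to 8000 genes, at most 10% mitochondrial counts, and removal of the 7.5% of barcodes most like artificial doublets (a rewritten DoubletFinder step with 25% artificial cells and 30 components). Counts of all genes in the file entered the totals.

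Seurat 5.3.0 (R 4.3.3) integrated the libraries by reciprocal PCA on 1996 features, leaving out the members and Mt3, and clustered at resolution 1. Clusters took names from marker lists by a score and the marker genes among their leading genes. UMIs were summed per class and library and divided by the total (CPM). Intervals are exact Poisson, Clopper-Pearson or exact conditional binomial. With 1 library in each group nothing was tested. A class needed 50 cells in each library. edgeR 4.0.16 gave TMM factors only, and sums and intervals were made in Python 3.11.15 (pandas 2.3.3, scipy 1.17.1). Ratio intervals were tested on simulated data. Kept cells held 106637931 (control) and 133089918 (TP) UMIs. In control and TP, 5362 and 869 kept cells had under 1000 UMIs and were left out of thinned shares.

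The members, gene lists and comparisons were chosen with earlier results of these data known. Named genes were the members, at most 4 of each list (the highest level and those past 2-fold), the 3 genes most alike per member, by Pearson's r of log2 levels with 10 CPM added among genes of at least 1000 UMIs, and the leading genes of clusters. Alternatives are given in the closing section.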

Additional observations from a re-analysis of the deposited data

Results flagged for a closer look

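Mt1, Mt2 and Mt4 stood higher in TP in one cell class and lower in another, by at least 1.5-fold each way with intervals clear of 1. The difference between classes was not tested, since each group has 1 library. For Mt1 the ratios of TP to control were 1.85 in the Ntn1/Tmtc1 class and 0.375 in IFE suprabasal-like cells. Among cells of like depth they were 1.075 and 0.360. For Mt2 they were 1.70 in germinative layer or matrix-like cells and 0.340 in IFE suprabasal-like cells, and 0.944 and 0.330 among cells of like depth. For Mt4 they were 2.19 in inner root sheath-like cells and 0.248 in myeloid-like cells, and 1.35 and 0.607 among cells of like depth. With the clusters of the inner root sheath in the control's shares the ratio there was 1.26. The value of myeloid-like cells (391 and 96.7 CPM) rests on 78 control cells and cannot be told from free RNA. The higher ratio comes from the cluster led by Prr9 and S100a3, with no inner root sheath marker among its 10 leading genes, while the other two clusters of that class stood at 0.937 and 1.04. Levels of Mt1 and Mt2 in IFE suprabasal-like cells lay within the range of the 7 classes of stroma, vessels, pigment and immune cells. The parts of depth, free RNA and cell mix in these differences were not tested.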

How the results depend on the processing

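Over all kept cells, only cells with at least 1000 UMIs and the removal of the shallow cluster kept the ratio of each of the 6 members within its counting interval. The TMM factor gave 1.14 for Mt1, 1.01 for Mt2, 1.66 for Mt4, 0.330 for Slc30a1, 0.900 for Mtf1 and 0.497 for Slc39a10. The control's cluster shares gave 1.05, 1.00, 1.05, 0.631, 0.820 and 0.786 in the same order. Means of ln(counts per 10000 + 1) gave 0.934, 0.883, 1.34, 0.356, 1.05 and 0.492. Without the mitochondrial limit Mt1 was 0.935, Mt2 0.827, Mt4 1.45 and Slc39a10 0.399. With doublets kept Mt2 was 0.844, Mt4 1.48, Slc30a1 0.271 and Slc39a10 0.398. As medians over classes, Mt2 was 1.00 and Mt4 1.05 with TMM factors within classes, and 0.724 and 1.12 at matched depth, an alternative added after seeing the data. Slc30a1 stayed at 0.271 to 0.364 under 6 alternatives. None of these takes free RNA into account, and the median includes classes whose Slc30a1 level cannot be told from it. Matched depth took 76 of 131 class ratios out of their intervals, TMM 49 of 132 and a minimum of 1000 UMIs 3 of 132. The shallow cluster's share of control Slc30a1 UMIs was 15.0% at resolution 0.5 (565 CPM), 3.39% at resolution 2 and 5.96% with a mitochondrial limit of 5%, beside 5.13%. The 783 genes at least 2-fold higher and 618 lower became 301 and 141 with a pseudocount of 10 CPM, 1190 and 320 with TMM, and 262 and 87 with the control's cluster shares. The share higher among these genes was 55.9%, 68.1%, 78.8% and 75.1% in this order. The cause was not tested. No paired analysis was possible because each group has 1 library. Depth limits Mtf1 most, at 3363 and 3177 UMIs per library.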
